A study of Mus musculus with 16 samples.

Results

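The microRNA miR-22 (mmu-miR-22 on the arrays) was followed across 8 mouse cell populations of the myeloid and dendritic cell lineages. It is 1 of 604 miRNAs on both array designs used, and 20 spots with 2 probe sequences measured it on each array. It was chosen from measured values, for being higher in every mature population than in the progenitors, so its difference between progenitors and mature cells is a description here and carries no test. What the choice did not use, and what is tested, is how miR-22 differed among the mature populations and among the progenitors.

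A miRNA is a short RNA cut from a hairpin precursor and loaded into an Argonaute protein, where its seed, the bases 2 to 8, pairs with target mRNAs and lowers their output. miR-22 comes from the 3′ arm of its hairpin, which lies in a non-coding host transcript, and the 5′ arm yields miR-22*. Reported targets of miR-22 include Tet2, an enzyme that oxidises methylated cytosine in blood cell development, and Irf8, a transcription factor needed for monocytes and several dendritic cell (DC) types. Red cell precursors are also known to express miR-22.

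All cells were sorted straight from untreated female C57Bl/6 mice aged 6 weeks, with no transgene or deletion named, and each of the 8 populations was measured in 2 biological replicates, 16 arrays in all. For each replicate of the 3 progenitor populations, marrow of 15 mice was pooled, and the cells lacked lineage markers and carried CD135. Of these, MP (a name the labels do not explain) had CD117 but no CD115. Those called MDP, known as macrophage and dendritic cell progenitors, had both. Those called CDP, the common dendritic cell progenitors, had CD115 and low CD117. The 5 mature populations were Gr1+ monocytes (CD11b+ CD115+ Gr1+) and plasmacytoid DC (PDC; B220+ CD11c int, SiglecH+, CD317+), both from the marrow of 5 pooled mice, and CD4+ DC, CD8+ DC and CD4-CD8- DC, CD11c+ cells from spleens of 8 pooled mice. CD8+ DC were also selected for CD86. Every replicate is a pool, so differences between single mice are not seen. Each replicate 1 lay on array design 1 and each replicate 2 on array design 2, with identical miR-22 probes.

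The sequences are shown because they set what the arrays could read. The mature strands and the hairpin are RefSeq's (GRCm38.p6), 5′ to 3′, with the seed in capitals in the mature strands and both mature strands in capitals in the hairpin. The probes are those of the array files, with the bases that pair with the seed in capitals.
miR-22: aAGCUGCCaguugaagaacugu
miR-22*: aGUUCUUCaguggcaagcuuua
Mir22 hairpin: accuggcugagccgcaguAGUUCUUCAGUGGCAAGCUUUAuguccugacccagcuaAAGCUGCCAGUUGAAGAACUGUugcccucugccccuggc
miR-22 probe of 19 bases: acagttcttcaactGGCAG
miR-22 probe of 18 bases: acagttcttcaactGGCA
miR-22* probe of 19 bases: taaagcttgccactGAAGA
miR-22* probe of 18 bases: taaagcttgccactGAAG

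The longer miR-22 probe pairs with bases 4 to 22 of the mature strand and so covers 5 bases of the seed, and the shorter one pairs with bases 5 to 22 and covers 4. Of the 1679 mature mouse names in the RefSeq table, no other had the seed AGCUGCC, and 0 shared bases 2 to 7. The longest stretch that any other mature mouse miRNA shared with the target of the longer probe was 8 bases, in 3 miRNAs. Per the array files the longer probe lies on chromosome 11 from 75277278 to 75277295 and the shorter one from 75277279 to 75277295 in build mm9, intervals of 18 and 17 positions. The miR-22* probe of 19 bases lies from 75277240 to 75277257. In RefSeq, Mir22 lies within the span of Mir22hg, its non-coding host gene.

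Across the 16 arrays, 16.7 to 25.4 percent of spots were well above background, 116 to 174 miRNAs were detected per array and 0 spots were saturated. Levels are log2 of the processed signal relative to the array's 75th percentile, taken over 88 miRNAs that every array detected, so that 0 stands for that percentile. Detection on an array means that 1 of the miRNA's probes had a share of 0.5 or more of its spots well above background. Lower values were raised to a floor, -5.32 on design 1 and -5.78 on design 2. In sorted bulk RNA, fewer cells that hold a miRNA and less of it in each cell cannot be told apart. All 16 arrays detected the 3 myeloid markers (miR-223 and both arms of miR-142). The stem and progenitor markers miR-126-3p, miR-130a and miR-196b were detected on all progenitor arrays and, among mature populations, on both PDC arrays.

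miR-22 was detected on 10 of 10 mature arrays and on 2 of 6 progenitor arrays. Every mature array lay between -2.34 and -0.35, and no progenitor array lay above -5.32, so the groups did not overlap. This gap is what miR-22 was chosen for.

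In MP the level of miR-22 was -5.32 on replicate 1, which is the floor, and -5.78 on replicate 2, where it was detected just above the floor. Before scaling, the 19-base probe gave a signal of 16.1 and 15.3 there and the 18-base probe 0.94 and 4.15. In MDP both arrays lay at the floor and 0 of 10 spots of either probe was well above background on either array. The 19-base probe gave 10.6 and 8.99 in MDP and the 18-base probe -0.66 and 0.49, which is at the background. In CDP the level was -5.32 (the floor) on replicate 1 and -5.65 on replicate 2, where 9 of 10 spots of the 19-base probe were well above background, and the probe gave 14.4 and 19.2. The 18-base probe had no spot well above background on any progenitor array. All 3 progenitor populations were thus at the limit of detection, with miR-22 detected on 1 of 2 arrays in MP, 0 of 2 in MDP and 1 of 2 in CDP. Feature Extraction's own flag, which uses another criterion, marked miR-22 as detected on 4 progenitor arrays, both of MP and both of CDP.

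PDC were the lowest of the mature populations. The level of miR-22 in PDC was -2.08 on replicate 1 and -2.34 on replicate 2, a mean of -2.21 ± 0.19 (SD, n = 2). Before scaling, the 19-base probe gave 172 and 267 there, above every progenitor array by a wide margin. The lowest mature signal of the 19-base probe was thus 172 and the highest progenitor signal 19.2.

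In Gr1+ monocytes, inflammatory-type monocytes of the marrow, the level was -0.997 and -1.39, a mean of -1.19 ± 0.28. The 19-base probe gave 399 and 280 and the 18-base probe 122 and 87.4. Both monocyte arrays were above both PDC arrays.

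The spleen DC held the most miR-22. CD4-CD8- DC had -1.11 and -0.66, a mean of -0.89 ± 0.32, the widest spread of the 5 mature populations, and their replicate 1 lay below monocyte replicate 1. CD4+ DC, the conventional DC type that carries CD4 in mouse spleen, had -0.35 and -0.57, a mean of -0.46 ± 0.15. CD8+ DC, the conventional DC type known for cross-presentation, had -0.48 and -0.38, a mean of -0.43 ± 0.07. The CD4+ and CD8+ DC arrays overlapped each other, and all 4 lay above both arrays of every other population.

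**Figure D1:**
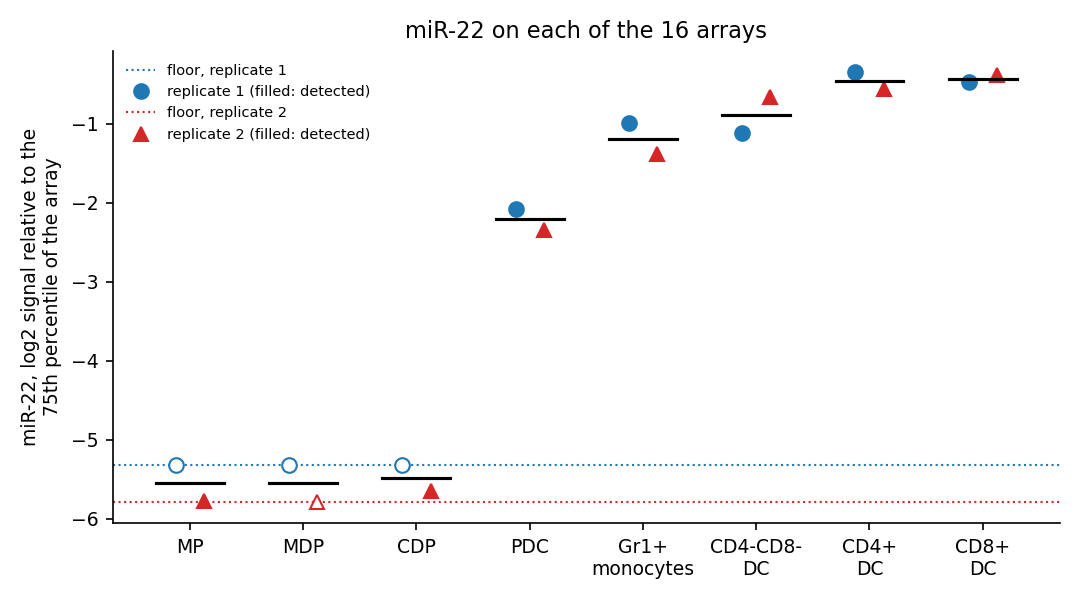
miR-22 on each array as log2 signal relative to the array's 75th percentile, with circles for replicate 1, triangles for replicate 2, open symbols where miR-22 was not detected, dotted lines at the floor of each design and bars at the population means. The 6 progenitor arrays lie at or just above the floor, and the 10 mature arrays lie between -2.34 and -0.35, PDC lowest and CD4+ and CD8+ DC highest.

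The 2 probes ran in parallel. The 18-base probe gave 44.1 and 78.6 in PDC, 295 and 220.5 in CD4+ DC, 143 and 169 in CD8+ DC and 116 and 164 in CD4-CD8- DC. The 19-base probe gave 914 and 670.1 in CD4+ DC, 420.0 and 545 in CD8+ DC and 393 and 536 in CD4-CD8- DC. On mature arrays all 10 spots of each probe were well above background, and the spots of the 19-base probe varied by a coefficient of variation of 1.92 to 12.9 percent. Both probes were thus well measured on every mature array, and most progenitor spots of either were not well above background.

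**Figure D2:**
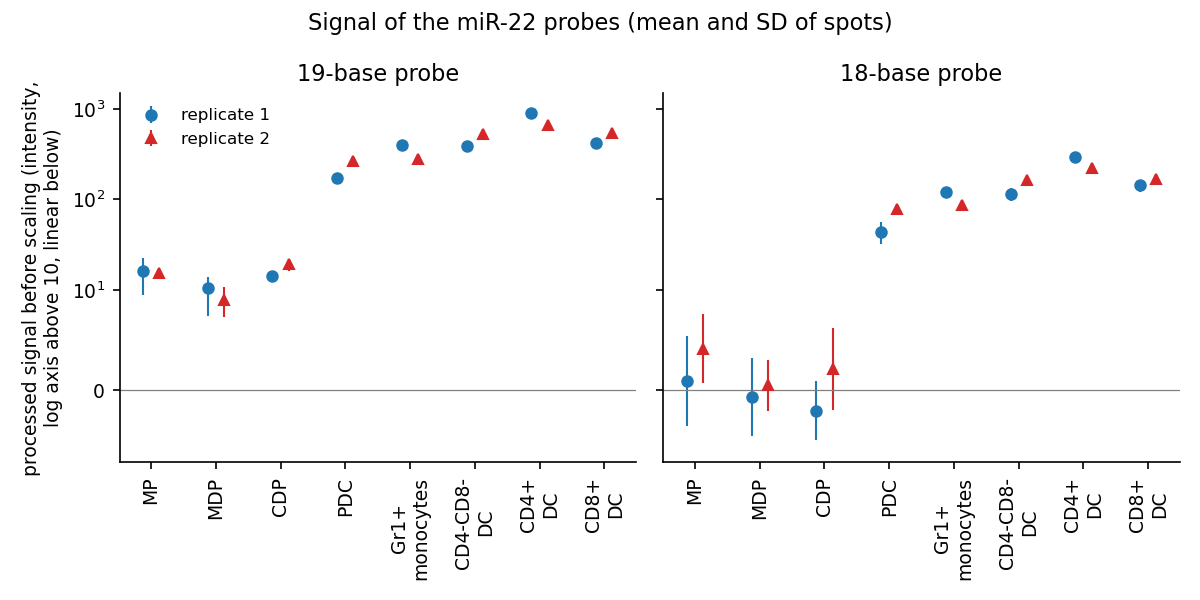
Processed signal of the 19-base and 18-base miR-22 probes before scaling, on each array (points, mean of spots; bars, SD of spots), on an axis that is logarithmic above 10 and linear below. The 18-base probe scatters around 0 in the progenitors, between -2.02 and 4.15, and lies between 44.1 and 295 in the mature populations.

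The difference between the mean of the 5 mature and the mean of the 3 progenitor populations was 4.49 ± 0.11 on the log2 scale (SE), 4.32 within design 1 and 4.67 within design 2. It was the largest of 175 tested miRNAs, which are those that both arrays of some population detected. In this contrast 62.9 percent of the tested miRNAs were called (limma, adjusted p under 0.05), 38.3 percent as higher and 24.6 percent as lower in mature cells. Against the mean of the progenitors, miR-22 was higher by 3.32 in PDC, 4.34 in Gr1+ monocytes, 4.64 in CD4-CD8- DC, 5.07 in CD4+ DC and 5.10 in CD8+ DC, each with an SE of 0.17. These sizes are set in part by the floor. With normexp background correction, which raises dim signals, the difference of 4.49 became 1.99.

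Against MDP, where miR-22 was not well above background, only a lower bound can be given for the fold. For it, the MDP signal of each array was replaced by the dimmest signal of any probe well above background wherever that was higher. miR-22 was at least 5.56-fold higher in PDC, at least 11.3-fold in Gr1+ monocytes, at least 13.9-fold in CD4-CD8- DC, at least 18.8-fold in CD4+ DC and at least 19.1-fold in CD8+ DC. Detection on every mature array and on at most 2 progenitor arrays was seen for 3 miRNAs. Beside miR-22 these were miR-362-3p (mature minus progenitor 1.48) and miR-195 (1.04). The limit of 2 equals the number of progenitor arrays that detected miR-22, so miR-22 met it in advance.

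The first question that the choice left free was whether the mature populations differed in miR-22. They did. The moderated F test over the 5 mature populations gave F = 23.7 (limma, adjusted p = 0.000508 over 175 miRNAs). This placed miR-22 at rank 41, in a test that called 67.4 percent of the miRNAs. Differences among mature cells were thus common, and that of miR-22 was 1 of many.

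PDC held less miR-22 than each of the other 4 mature populations. Gr1+ monocytes exceeded PDC by 1.02 ± 0.21 (adjusted p = 0.00436, 41.1 percent of miRNAs called), which is a fold of 2.03 with a 95 percent interval from 1.45 to 2.84. The difference was 1.09 within design 1 and 0.96 within design 2. Without any scaling between arrays it was 0.68 and not called (adjusted p = 0.162), the signals on design 2 before scaling being 183 in monocytes and 173 in PDC.

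PDC held less than CD4-CD8- DC (difference -1.33 ± 0.21, adjusted p = 0.00133, 31.4 percent called), a ratio of 0.399. Against CD4+ DC the PDC difference was -1.76 (adjusted p = 0.000188, 38.9 percent called), a ratio of 0.296. Against CD8+ DC it was -1.78 (adjusted p = 0.00016, 53.1 percent called), a ratio of 0.291, and it was -1.10 when arrays were scaled over all miRNAs. Both replicates showed each of these differences, -0.97 and -1.68 for CD4-CD8- DC, -1.73 and -1.78 for CD4+ DC and -1.60 and -1.96 for CD8+ DC. The low level of miR-22 in PDC against the spleen DC was called under each of the 13 other settings tried and with any 1 array of the pair left out.

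Gr1+ monocytes lay below the 2 highest DC types by smaller steps. They were below CD4+ DC by 0.73 ± 0.21 (difference -0.73, adjusted p = 0.023, 38.9 percent called) and below CD8+ DC by 0.76 (difference -0.76, adjusted p = 0.0156, 48.0 percent called). Neither call held under every setting. The first ended when any of its 4 arrays was left out (adjusted p = 0.0508 to 0.134), under quantile normalization (-0.53), normexp background correction (-0.39), scaling over all miRNAs or no floor, and without the replicate block for array design (adjusted p = 0.0519). Without scaling between arrays this difference was -1.25. The second ended without monocyte replicate 2 (-0.65, adjusted p = 0.0944) or CD8+ DC replicate 2 (-0.60, adjusted p = 0.117), and it was -0.051 when arrays were scaled over all miRNAs. It also ended under quantile normalization (-0.52), with normexp (-0.43) and without scaling (-0.54).

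Neighbours in the order of levels did not all differ beyond their spread. Monocytes and CD4-CD8- DC differed by -0.30 (95 percent interval -0.79 to 0.18, adjusted p = 0.379, 29.1 percent called), with 0.12 within design 1 and -0.73 within design 2. This became a call (-0.68, adjusted p = 0.0313) when CD4-CD8- DC replicate 1 was left out. CD4+ and CD8+ DC differed by -0.027 (interval -0.51 to 0.46, adjusted p = 1, 30.9 percent called). The value moved with the scaling, and so did the median of all tested miRNAs. That median was -0.24 in this pair and 0.22 when arrays were scaled over all miRNAs. Relative to that median, miR-22 differed by 0.21 and 0.52.

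CD4+ DC exceeded CD4-CD8- DC by 0.43 without a call (interval -0.054 to 0.91, adjusted p = 0.325), in a pair of populations in which 4.57 percent of miRNAs were called. It was 0.059 without CD4-CD8- DC replicate 1, 0.80 without replicate 2 of that population and 0.80 without scaling between arrays, with a call in none of these. CD8+ DC exceeded CD4-CD8- DC by 0.46 without a call (interval -0.026 to 0.94, adjusted p = 0.147, 29.1 percent called). Scaled over all miRNAs it was -0.26. The difference was 0.83 (adjusted p = 0.0142) without CD4-CD8- DC replicate 2. The order among the 3 spleen DC is thus not settled by these arrays, and the intervals allow differences of miR-22 up to 0.94. In all, 6 of the 10 pairs of mature populations were called, each pair adjusted over the 175 miRNAs within it.

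**Figure D3:**
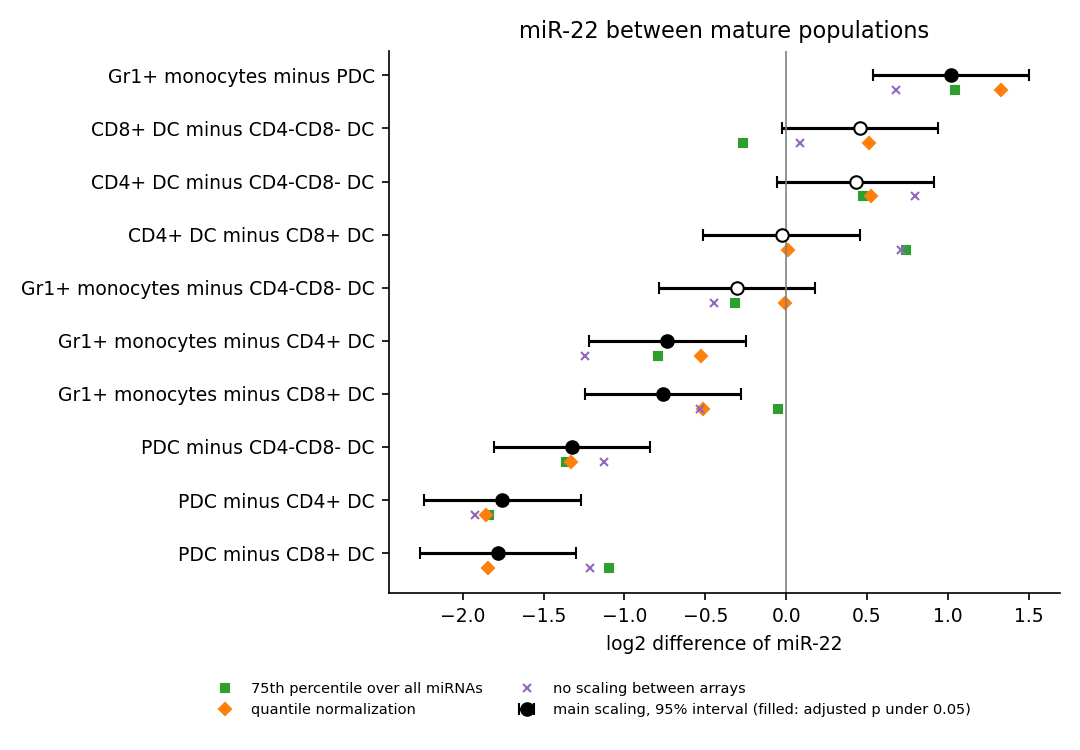
Log2 difference of miR-22 in each of the 10 pairs of mature populations, as a circle with its 95 percent interval (filled where the adjusted p was under 0.05), with the value under 3 other scalings below it. The 4 pairs with PDC keep their direction under each scaling, while CD4+ minus CD8+ DC lies at -0.027 and moves to 0.74 when arrays are scaled over all miRNAs.

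As a group, the 3 spleen DC exceeded the mean of the 2 marrow populations by 1.11 ± 0.14 (limma, adjusted p = 0.000172, 48.0 percent called). Tissue and cell type cannot be told apart in this difference, because no mature population was taken from both organs, and pool size differs with them too.

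Among the progenitors no pair was called for miR-22. MP minus MDP was 0.0042 (10.3 percent of miRNAs called) and MP minus CDP was -0.061 (21.1 percent called). MDP minus CDP was -0.066, in a pair where limma called 0 of 175 miRNAs, 0 percent, and 26 had an unadjusted p under 0.05. With 4 of the 6 arrays at the floor, differences of miR-22 below it were not detectable.

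miR-22* is the other strand of the hairpin. On the 19-base probe, miR-22* gave a signal of 13.5 and 12.8 in CD4+ DC, 8.27 and 12.7 in CD8+ DC, 5.47 and 9.71 in CD4-CD8- DC, 4.49 and 6.02 in Gr1+ monocytes and 1.92 and 6.45 in PDC. In the progenitors it lay between 0.058 and 4.88. By the criterion used here miR-22* was detected on 1 array, CD8+ DC replicate 2, and by Feature Extraction's flag on 3, both CD4+ DC arrays and CD8+ DC replicate 2. It was not tested, being detected on both arrays of no population. The arrays with a detected miR-22* were thus of the DC types with the most miR-22.

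Replicates of miR-22 spread slightly more than those of the median miRNA. The difference of replicate 2 from replicate 1 ran from -0.39 to 0.45 over the mature populations. The residual SD of miR-22 was 0.22, beside a median of 0.19 over the tested miRNAs. That SD covers all 8 populations, with miR-22 at the floor on 4 progenitor arrays, so it is not the spread of the mature replicates alone. The SE of each mature pair draws on it as well.

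Some of the listed cell type markers also differed between the mature populations. PDC, the mature population with the least miR-22, were also the ones in which all 3 stem and progenitor markers were detected, with a summed level of 0.175 to 0.225 on the linear scale, against 0.240 to 1.37 in the progenitors. In the other 4 mature populations 0 of the 3 was detected, and the sum of 0.0544 to 0.0751 is that of values at or next to the floor. The summed lymphocyte markers (miR-150, miR-181a, miR-181b and miR-155) were also highest in PDC, at 2.47 to 3.07, against 0.381 to 2.10 in the other mature populations. The sum was carried mostly by miR-181a, whose levels on the log2 scale were 0.61 and 0.83 in PDC. The other members did not all follow that order, as miR-155 stood at -3.48 and -3.39 in PDC and at -0.85 and -0.76 in CD4-CD8- DC, and the mean of miR-150 was -0.83 and -0.73 in these populations. The part of these in the PDC level of miR-22 was not tested.

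As red cell precursors express miR-22, the erythroid markers were set beside it. miR-451, the defining one, stood at -2.95 and -1.54 in PDC, -0.29 and -1.83 in CD4+ DC, 0.31 and -0.96 in CD8+ DC and -2.25 and -2.65 in CD4-CD8- DC. Its highest means were in CD8+ DC (-0.32) and CD4+ DC (-1.06), the populations with the most miR-22. Its correlation with miR-22 was 0.62 over the 16 arrays after removing each design's mean. By rank over the 8 population means it was 0.83. The 2 CD4-CD8- DC arrays of miR-451 lay between its 2 PDC arrays, and those of miR-22 lay above both. miR-144, which shares its precursor transcript with miR-451, was detected on 0 of 16 arrays, and miR-486 on 3. In Gr1+ monocytes miR-451 was near the floor, at -5.15 and -4.57, while miR-22 stood at -0.997 and -1.39.

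On MP replicate 1 miR-451 stood at -0.998 and miR-22 at the floor. The summed erythroid markers, 3 of 4 of which were on both designs, ranged from 0.0623 to 0.559 in progenitors, were 0.0783 on both monocyte arrays and ranged from 0.180 to 1.30 in the other mature populations. On the monocyte arrays miR-144 and miR-486 lay at the floor, so the sum there is set in part by it. On monocyte replicate 1, 0 of these markers was detected. The part of erythroid RNA in the miR-22 level was not tested in any population. Of the 14 stromal, muscle and epithelial markers at most 2 were detected on any array.

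The miRNAs most like miR-22 were picked by the correlation with it over the 16 arrays after removing each design's mean, and the arrays fall into a progenitor and a mature cluster, so a high value there says mostly that a miRNA also rose between them. The value over the 10 mature arrays is given beside it, and all points share the scaling of their array. The most like was miR-350, with r = 0.98 over 16 arrays and 0.87 over the mature 10. Next came miR-15a (0.97 and 0.57), miR-195 (0.95 and 0.29), miR-142-5p (0.94 and 0.65), miR-342-3p (0.93 and 0.78) and miR-185 (0.93 and 0.13). Of the 6, miR-350 and miR-342-3p thus had the highest values over the mature arrays as well, and miR-185 and miR-195 the lowest. Over the mature arrays alone, some miRNAs outside the 6 were more like miR-22 than miR-350 was. Among them were miR-30a (0.93), miR-1906 (0.90) and miR-7a (0.89). By rank correlation over the 8 population means, 3 of these 6 stayed among the 6 most like. By that measure miR-350 (0.95) came behind miR-574-5p and miR-1187 (0.98 each).

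Least like miR-22 were miR-92a (-0.96 and -0.56), miR-126-3p (-0.95 and -0.87) and miR-20b (-0.93 and -0.082). miR-92a and miR-20b belong to the miR-17 to miR-92 family of clusters, known for promoting proliferation, and miR-126-3p is a stem and progenitor cell miRNA. The value of miR-126-3p over the mature arrays rests on the 2 PDC arrays, since it was not detected on the other 8, so it gives no course among the other 4 mature populations.

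The mature sequences of the most like miRNAs are shown to compare their seeds, in capitals, with that of miR-22 (RefSeq, GRCm38.p6).
miR-350: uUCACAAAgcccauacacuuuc
miR-15a: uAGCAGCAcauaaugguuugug
miR-195: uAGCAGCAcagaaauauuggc
miR-142-5p: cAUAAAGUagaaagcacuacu
miR-342-3p: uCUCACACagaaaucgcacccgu

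miR-15a and miR-195 share the seed AGCAGCA, and none of the 5 has the seed of miR-22. miR-350 went from a mean of -3.89 in MP, -3.74 in MDP and -3.73 in CDP to -2.74 in PDC, -2.47 in Gr1+ monocytes, -2.15 in CD4-CD8- DC, -2.02 in CD8+ DC and -1.84 in CD4+ DC. This is the same order as miR-22 from PDC up to CD4-CD8- DC, with CD4+ and CD8+ DC again on top. miR-342-3p had means of -3.67 in MP, -2.97 in MDP and -2.16 in CDP, with an SD of 0.55 in MP, while miR-22 was at the limit of detection in all 3.

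**Figure D4:**
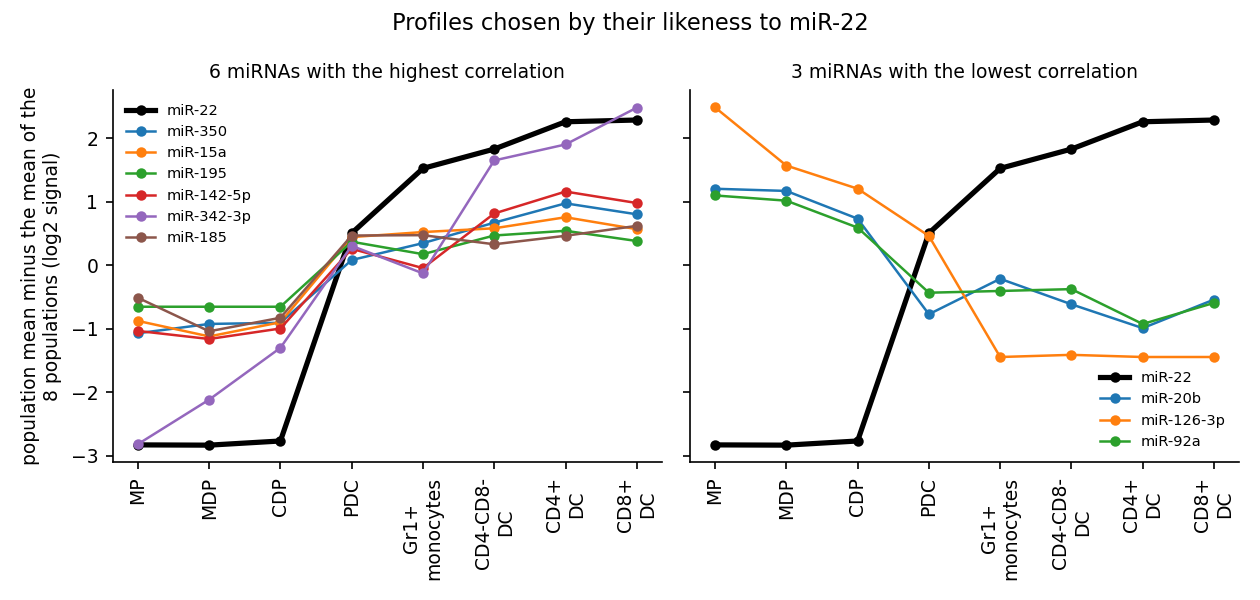
Population means of miR-22 (black) and of the 6 miRNAs with the highest and the 3 with the lowest correlation with it, each minus its own mean over the 8 populations, in log2 units. miR-22 lies at or next to the floor in the 3 progenitor populations and has its highest means in CD4+ and CD8+ DC, and miR-126-3p lies at or next to the floor in every mature population but PDC.

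Other miRNAs described as targeting Tet2 were mostly higher in mature cells as well. Of 9 tested, 7 were called higher and 2 lower, where 38.3 percent of all tested miRNAs were called higher and 24.6 percent lower. Their median was 0.89, against 0.14 over all tested miRNAs, in the contrast that picked miR-22. The 3 members of the miR-29 family had the largest differences after miR-22, 1.65 for miR-29c, 1.45 for miR-29a and 1.42 for miR-29b. miR-26b (1.16), miR-26a (0.89), miR-7a (0.76) and miR-101a (0.48) followed. miR-101b (-0.40) and miR-125b-5p (-1.40), the latter a stem cell miRNA, went the other way.

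The 9 did not share 1 course among the mature populations. miR-29a stood at a mean of 0.054 in Gr1+ monocytes, within the range of the progenitor means (-0.47 to 0.29), and at 1.47 to 1.84 in the 4 DC populations. miR-22 stood in monocytes, by contrast, at -1.19, against progenitor means of -5.55 to -5.49. The difference between the courses of miR-29a and miR-22 was not tested. Among the mature populations 6 of these 9 were called by the F test, where 67.4 percent of all miRNAs were.

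Among 17 miRNAs described to accumulate in myeloid maturation, 11 were called higher and 3 lower in mature cells, where 38.3 percent of all tested miRNAs were called higher and 24.6 percent lower. Their median was 1.08, against 0.14 over all tested miRNAs. The largest differences were those of miR-146a (3.81), which dampens innate immune signalling, miR-342-3p (3.32), miR-150 (2.94), a lymphocyte miRNA, and miR-34a (1.93), a p53 target. For 3 of these 4 the mean over mature cells does not describe monocytes. In Gr1+ monocytes miR-146a stood at -4.54, against progenitor means of -4.84 to -4.07, miR-150 at -4.81, against -5.53 to -4.08, and miR-34a at -5.01, against -4.84 to -3.31. miR-34a was also at -4.63 in PDC. Of 6 tested early progenitor miRNAs 0 were called higher and 5 lower, beside the same shares over all tested miRNAs (38.3 percent higher and 24.6 percent lower), with a median of -1.91, led by miR-126-3p (-2.81), miR-130a (-2.74), miR-196b (-2.42) and miR-125b-5p (-1.40).

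Of 9 miRNAs with probes within 5 Mb of miR-22 on chromosome 11, 4 were tested. miR-22 was chosen on this contrast and ranked first in it, so the sizes of its neighbours are given as values and not set against its own. miR-212, 290.3 kb away in build mm9 and the nearest tested one, had a mature minus progenitor difference of 0.17 without a call, and its partner miR-132 was detected on 1 array. miR-423-5p, 1614 kb away, was called higher by 0.86, and its profile over the 10 mature arrays correlated with miR-22 at 0.84. Over the same arrays the correlation was lower for the other tested neighbours, 0.56 for miR-212, 0.45 for miR-365 and 0.38 for miR-451. miR-451, 2609 kb away, was called higher by 2.23 and varied as given above. miR-365, 4263 kb away, differed by 0.21 without a call. miR-144, miR-423-3p and miR-193* were detected on 0 arrays and miR-193 on 1.

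**Figure D5:**
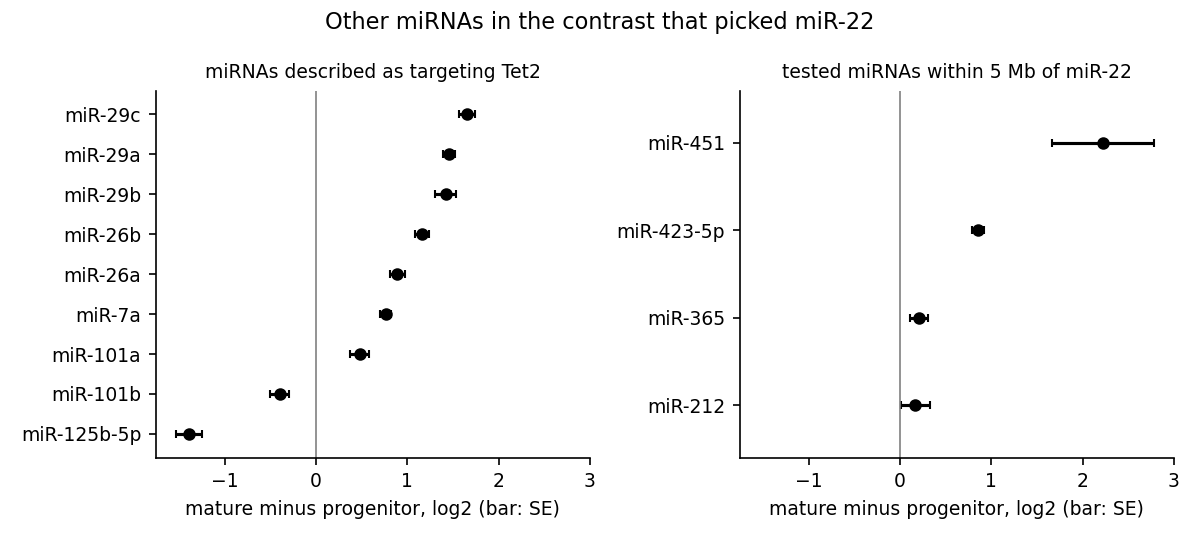
Mature minus progenitor difference on the log2 scale (points, with SE bars) of the other miRNAs described as targeting Tet2 and of the tested miRNAs within 5 Mb of miR-22. The highest is miR-451 at 2.23, with the widest bar, and the lowest miR-125b-5p at -1.40.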

How the data were processed

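Total RNA of each sample, labelled with Cy3, had been hybridised to a 1-colour Agilent miRNA array. The deposited values are spot intensities on a linear scale, background-subtracted, per the file headers, with version 10.7.3.1 of Agilent's Feature Extraction (9.1 per the submitters' processing notes) and not scaled between arrays. The deposited series tables hold the same intensities, 226800 of 226800 values being equal within 1 percent. Of the 604 miRNAs on both designs, all had the same probes.

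From these, spots marked as outliers were dropped, spots and then probes averaged, arrays scaled to the 75th percentile of 88 miRNAs (factors of 333 to 876), values raised to a floor for each design (the median of its arrays' 5th percentiles, over detected miRNAs), and log2 taken. All 16 arrays entered 1 fit in limma 3.58.1 (R 4.3.3) with a mean per population and the array design as a block, with p-values adjusted by Benjamini-Hochberg over the 175 tested miRNAs within each contrast and a threshold of 0.05. Replicate numbers stand for the array design and so pair the samples. Deviations of same-numbered arrays correlated in 28 of 28 pairs of populations (r 0.293 to 0.916). Offsets between the designs and between their floors enter these deviations in every population. The correlations thus cannot show a pairing of the mouse pools. Replicate number, design, slide and scan are the same split. The statistics were tested on simulated data with independent normal noise, to which neither a floor nor scaling between arrays was applied. That test thus does not cover the limits set by floor and scaling. With 2 arrays a population, precision is limited by their number.

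miR-22, the lists and the markers were chosen with earlier results of these data known. Named miRNAs are miR-22, miR-22*, all members of the Tet2 list, neighbours and markers, up to 4 members with the largest difference of the other lists, and the 6 most and 3 least correlated with miR-22. miR-362-3p, miR-30a and miR-1906 were named after their values were seen. RefSeq names matched 153 of the 175. The alternatives tried changed the scaling, background, floor, filter, probe summary, variance prior and block, or left out 1 array. Those using 1 probe, the total gene signal or no scaling were chosen after seeing the data.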

Additional observations from a re-analysis of the deposited data

How the results depend on the processing

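PDC against each spleen DC population, spleen DC against marrow and the F test kept their direction and call under 13 other settings and with each array left out. Monocytes minus PDC lost its call without scaling between arrays (0.68). With arrays scaled over all miRNAs, CD4+ minus CD8+ DC was 0.74, CD8+ minus CD4-CD8- DC -0.26, monocytes minus CD4+ DC -0.79, monocytes minus CD8+ DC -0.051, and MP minus CDP and MDP minus CDP -0.43 each, without a call. Under quantile normalization the values for CD4+ minus CD8+ DC, monocytes minus CD4+ DC and monocytes minus CD8+ DC were 0.0096, -0.53 and -0.52. Without scaling, CD4+ minus CD8+ DC was 0.71 and monocytes minus CD8+ DC -0.54. With normexp background correction, monocytes minus CD4+ DC was -0.39, monocytes minus CD8+ DC -0.43, MDP minus CDP 0.23, MP minus CDP 0.013, MP minus MDP -0.22 and mature minus progenitor 1.99. The normexp offset of 50 raises dim signals. Without the floor, mature minus progenitor was 4.98, MP minus MDP 0.60, MDP minus CDP -0.32, MP minus CDP 0.28 and monocytes minus CD4+ DC -0.73. Mature minus progenitor was 3.45 from the 18-base probe alone and 4.80 from the total gene signal, both chosen after seeing the data. Without the replicate block, monocytes minus CD4+ DC was -0.73 and lost its call, and no other call on miR-22 changed. With single arrays left out, values ranged from -0.19 to 0.14 for CD4+ minus CD8+ DC, 0.086 to 0.83 for CD8+ minus CD4-CD8- DC, 0.059 to 0.80 for CD4+ minus CD4-CD8- DC, -0.68 to 0.067 for monocytes minus CD4-CD8- DC, -0.85 to -0.62 for monocytes minus CD4+ DC, -0.93 to -0.60 for monocytes minus CD8+ DC, -0.22 to 0.087 for MDP minus CDP, -0.21 to 0.086 for MP minus CDP and -0.15 to 0.16 for MP minus MDP. A population left with 1 array is assumed to vary like the others. The cause of the other shifts was not tested. Signal near background limits every progenitor value of miR-22.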
